A study of Homo sapiens with 11 samples.

Results

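The genes described here are the heat shock proteins and their J-domain partners, taken from the deposited count table by name: protein-coding rows whose symbol begins with HSPA, HSPB, HSPD, HSPE or HSPH and a digit, with HSP90, or with DNAJA, DNAJB or DNAJC and a digit, together with CRYAB. The rule found 75 genes among 78932 rows that name a human gene. Of these, 64 passed the filter on low counts and were tested among 18245 genes. The 75 were 8 small heat shock protein genes (5 tested), 12 HSP70 genes (12 tested), 3 HSP110 genes (3 tested), 3 HSP90 genes (3 tested), 2 mitochondrial chaperonin genes (2 tested), 4 DNAJA genes (4 tested), 12 DNAJB genes (9 tested), 28 DNAJC genes (26 tested) and 3 read-through rows (0 tested). Libraries came from hTERT-HM, a line of human uterine smooth muscle cells made immortal by telomerase and labelled wild type, with 3 libraries of day 1, 4 of day 3 and 4 of day 6, taken while it formed engineered myometrial microtissues over 6 days. All groups are this 1 cell line with no other agent named in the labels. Nothing in the labels gives the replicates separate cultures. The p-values therefore rest on the spread among the libraries of a day, which may be technical. Polyadenylated RNA was measured by RNA-seq, and in such bulk libraries fewer cells of a type and less RNA per cell cannot be told apart.

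Heat shock proteins are chaperones that keep other proteins folded. Small heat shock proteins hold unfolded clients without using ATP; HSP70 proteins bind and release clients in an ATP cycle that J-domain proteins of the DNAJ families start and HSP110 proteins reset; HSP90 proteins act on later folding states, and the chaperonin of mitochondria folds imported proteins in a closed chamber. Each compartment has its own set: HSPA5 (BiP) and HSP90B1 work in the endoplasmic reticulum with several DNAJ proteins, HSPA9, HSPD1 and HSPE1 in mitochondria, and the remainder mostly in cytosol and nucleus. The transcription factor HSF1 induces the cytosolic set through heat shock elements, inverted repeats of GAA in promoters, whereas the endoplasmic reticulum set is induced by the unfolded protein response through a different element. In smooth muscle, HSPB1 and HSPB6 are known as regulators of actin and of relaxation.

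Library totals ranged from 28071813 to 33021509 counts. Levels are given in CPM, which are counts scaled to a common library total, here with TMM factors unless stated. A count of 3, the limit that a count of 0 allows, was 0.0908 to 0.107 CPM by library totals, without TMM factors. Such limits cover counting error only. The members together held 1.16% ± 0.0485 of all counts on day 1, 1.08% ± 0.00707 on day 3 and 0.975% ± 0.0317 on day 6 (SD, n = 3, 4 and 4). All 8 smooth muscle markers were measurable, with a summed level of 1554 to 1905 CPM on day 1, 1605 to 1655 CPM on day 3 and 2619 to 2871 CPM on day 6. TPM2 was the largest part, with day means of 944, 849 and 1024 CPM, and MYH11 the smallest, with 1.14, 1.07 and 1.55 CPM. Fibroblast markers, which mesenchymal lines also express, summed to 10427 to 12458, 10768 to 12159 and 10434 to 16100.5 CPM on the same days. Of 5 epithelial markers 3 keratins were tested and the list summed to 38.2 to 43.6, 52 to 55.6 and 31.9 to 38 CPM, while its defining genes EPCAM and CDH1 had at most 2 and 3 counts in a library. Of 5 endothelial markers 4 were tested, with sums of 39.9 to 42.5, 41 to 44.7 and 39.3 to 44.7 CPM, mostly PECAM1, and at most 8 counts of CDH5. Of 5 leukocyte markers 1 was tested, CD14, with sums of 7.54 to 11.3, 5.06 to 6.83 and 3.72 to 9.58 CPM and at most 1 count of PTPRC. The part of these lists in the results below was not tested. The muscle marker DES had at most 2 counts, at or under the limit in every library.

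Levels between genes were compared per kilobase of the longest protein-coding transcript. The constitutive HSP70 gene HSPA8 had the highest value among the tested members, 625 CPM per kb averaged over the 11 libraries. It was followed by the endoplasmic reticulum genes HSP90B1 at 467 CPM per kb and HSPA5 at 454 CPM per kb, and by the cytosolic HSP90 genes HSP90AB1 at 382 CPM per kb and HSP90AA1 at 278 CPM per kb. DNAJA1, a main cytosolic J-domain partner of HSP70, stood at 142 CPM per kb and HSPB1 at 114 CPM per kb, the highest values of the DNAJ genes and of the small heat shock genes. The stress-inducible genes HSPA1A, HSPA1B and HSPA6 were at 37.9, 21.5 and 0.485 CPM per kb. The lowest tested member was HSPA12B at 0.105 CPM per kb. HSPE1, the co-chaperonin, had 8.43 CPM per kb against 71.4 CPM per kb for its partner HSPD1, but its count is uncertain. The read-through row HSPE1-MOB4, with 1 count in all, overlaps HSPE1 on chromosome 2, positions 197500140 to 197503449 of GRCh38. The HSPE1 span also lies within that of HSPD1, which held 58196 counts over all libraries against 2672 for HSPE1. The 26 named HSPE1 pseudogenes held 57 counts for every 100 counts of HSPE1. The corresponding ratio was 3.94 for HSPD1, 1.75 for HSPA8, 2.06 for HSPB1, 5.48 for DNAJB6, 5.22 for DNAJC19 and 4.48 for DNAJC9.

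**Figure D1:**
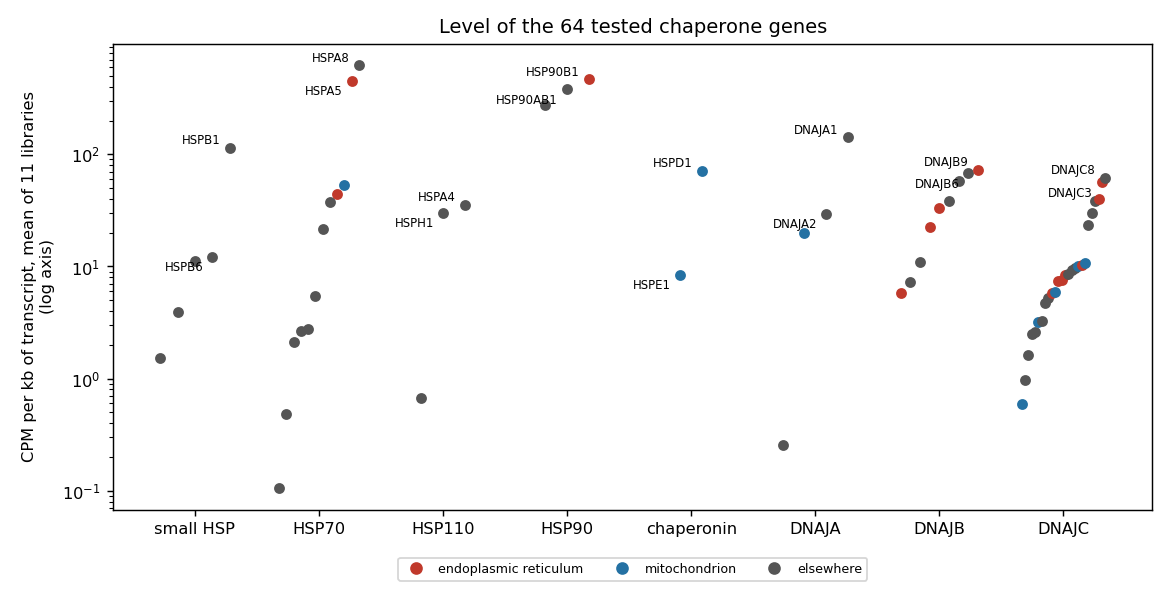
Level of each of the 64 tested members in CPM per kb of transcript, mean of 11 libraries, on a log axis. Points are genes grouped by class and coloured by compartment, and the 2 highest of each class are named; HSPA8, HSP90B1, HSPA5, HSP90AB1 and HSP90AA1 stand at the top.

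The 11 members that did not pass the filter were near or at 0. HSPB2 and HSPB2-C11orf52 had 0 counts in all libraries, which allows at most 0.107 CPM by library totals in the shallowest. HSPB3 and HSPB9, small heat shock genes known from muscle and testis, reached 11 and 8 counts. DNAJB7, DNAJB8, DNAJB13, DNAJC5B and DNAJC5G reached 4, 2, 1, 5 and 2 counts. The read-through rows HSPE1-MOB4 and DNAJC25-GNG10 reached 1 count each.

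Promoters of 5 members are shown for the 2 kinds of element known from cytosolic and from endoplasmic reticulum chaperone genes. They are the 250 bases before the annotated start, written 5′ to 3′ on the gene's strand, from RefSeq on GRCh38.p14. In the first 3, capitals mark pairs of inverted GAA units (GAANNTTC or TTCNNGAA, which overlap where 3 units follow each other); in the last 2, they mark the endoplasmic reticulum stress element on either strand, CCAAT and CCACG with 9 free bases between them.
HSPA8 (chr11:123062137-123062386, - strand): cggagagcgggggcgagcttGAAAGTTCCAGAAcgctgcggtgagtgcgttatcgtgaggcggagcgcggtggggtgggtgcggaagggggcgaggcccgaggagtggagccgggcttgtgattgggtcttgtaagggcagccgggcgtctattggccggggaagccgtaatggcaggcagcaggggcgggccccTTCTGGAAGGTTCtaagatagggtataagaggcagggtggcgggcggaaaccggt
HSPA1A (chr6:31815293-31815542, + strand): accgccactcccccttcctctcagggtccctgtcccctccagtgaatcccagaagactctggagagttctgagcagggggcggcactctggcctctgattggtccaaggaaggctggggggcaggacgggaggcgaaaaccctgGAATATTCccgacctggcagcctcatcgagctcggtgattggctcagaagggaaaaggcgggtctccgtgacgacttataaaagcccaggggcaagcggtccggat
HSPB1 (chr7:76302423-76302672, + strand): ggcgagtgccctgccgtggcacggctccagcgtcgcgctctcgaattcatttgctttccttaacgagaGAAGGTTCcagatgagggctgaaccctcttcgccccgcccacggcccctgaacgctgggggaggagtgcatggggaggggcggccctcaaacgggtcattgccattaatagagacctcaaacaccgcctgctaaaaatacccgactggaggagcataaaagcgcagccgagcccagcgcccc
HSPA5 (chr9:125241344-125241593, - strand): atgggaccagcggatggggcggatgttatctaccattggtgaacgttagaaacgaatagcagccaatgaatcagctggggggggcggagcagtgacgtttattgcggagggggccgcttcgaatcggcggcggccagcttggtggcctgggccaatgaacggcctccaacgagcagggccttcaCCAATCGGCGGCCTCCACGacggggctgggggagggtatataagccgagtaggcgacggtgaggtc
HSP90B1 (chr12:103930160-103930409, + strand): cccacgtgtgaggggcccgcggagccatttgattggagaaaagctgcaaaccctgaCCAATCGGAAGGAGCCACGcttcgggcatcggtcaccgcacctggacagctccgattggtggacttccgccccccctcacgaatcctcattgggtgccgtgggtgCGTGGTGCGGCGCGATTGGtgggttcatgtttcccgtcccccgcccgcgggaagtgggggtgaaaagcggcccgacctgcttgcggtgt

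HSPA8 carries 2 runs of 3 units, HSPA1A and HSPB1 a single pair each, HSPA5 1 stress element and HSP90B1 2, on opposite strands. RefSeq windows were matched for 58 of the 64 tested members. The pair GAANNTTC, its own reverse complement, was found in 13 of 58 (22.4%), against 5.89% of all 35116 promoters of the same length. The pair TTCNNGAA, also palindromic, was found in 9 (15.5%), against 6.69%. A run of 3 alternating units (GAA, TTC, GAA or TTC, GAA, TTC, with 2 free bases between units), which contains both pairs, was found in 6 (10.3%), against 0.441%: HSPA6, HSPA8, HSP90AA1, HSP90AB1, HSPD1 and DNAJB6. The stress element was found on either strand in 2 (3.45%), against 0.0826%, and these were HSPA5 and HSP90B1. At least 1 pair of GAA units stood in 0 of 13 windows of endoplasmic reticulum members and in 15 of 45 windows of the others, against 11.8% of all promoters. The windows of HSPA1A and HSPA1L overlap on opposite strands and share the pair. A match is a description of these letters in this window and not a bound site.

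The comparison of day 3 with day 1 asks what changed early in tissue formation. The small heat shock genes CRYAB, HSPB7, HSPB8 and HSPB1 fell, as did the cytosolic genes HSPA1A, HSPH1 and DNAJB1, and 3 DNAJC genes rose, DNAJC12, DNAJC3 and DNAJC1. In all, 10 of 64 members were called at an adjusted p under 0.05, 3 higher and 7 lower. Over all tested genes 12.8% were called, 6.88% higher and 5.9% lower. The share of all genes called in either direction was 7.19% without day 1 replicate 1 and 7.24% without day 1 replicate 2, where 9 and 10 members were called. Scaling by library totals shifted the median log2 fold change over the tested genes by -0.06, and it called 3 members higher and 12 lower, against 4.6% and 8.93% of all genes. A fit of only these 2 days called 5 higher and 13 lower, against 10.5% and 10.3%. The median log2 fold change was 0.00 over the members and 0.00 over all tested genes. By class it was -0.69 for the 5 small heat shock genes, -0.05 for 12 HSP70 genes, -0.05 for 3 HSP110 genes, -0.14 for 3 HSP90 genes, -0.15 for 2 chaperonin genes, 0.03 for 4 DNAJA genes, 0.07 for 9 DNAJB genes and 0.09 for 26 DNAJC genes.

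The comparison of day 6 with day 3 covers the late step. Genes of the endoplasmic reticulum fell in 12 of 14 cases, among them HSPA5, HSP90B1, HSPA13, DNAJB9 and DNAJC3, while the small heat shock genes HSPB1 and HSPB6 rose. Of 64 members 13 were called higher and 24 lower, that is 37 in either direction, against 26.4%, 23.4% and 49.9% of all tested genes. Library totals shifted the median over all genes by 0.18 and called 24 members higher and 18 lower, against 43.2% and 12.3% of all genes. The members higher by library totals included HSPA4, HSPA6, HSPA12A, HSP90AA1, DNAJA3, DNAJB1, DNAJC13, DNAJC14, DNAJC21, DNAJC24 and DNAJC30, which TMM scaling did not call. The median log2 fold change of the members was -0.08, beside 0.03 for all tested genes. For day 6 against day 1, which spans the whole formation, 10 members were higher and 29 lower (39 in either direction). Over all tested genes the shares were 21.3%, 18.7% and 39.9%, and the median log2 fold changes were -0.19 for the members and 0.02 for all genes. Library totals shifted all genes by 0.13 and called 13 members higher and 23 lower, against 32.7% and 11.2% of all genes. The late step was also set against the early step in 1 contrast that makes no allowance for its longer duration. In it 30 members differed, 11 with a positive and 19 with a negative difference, against 35.2%, 17.5% and 17.7% of all tested genes. Library totals gave 27 and 10, against 31.5% and 9.24% of all genes. The 2 steps share the day 3 libraries.

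**Figure D2:**
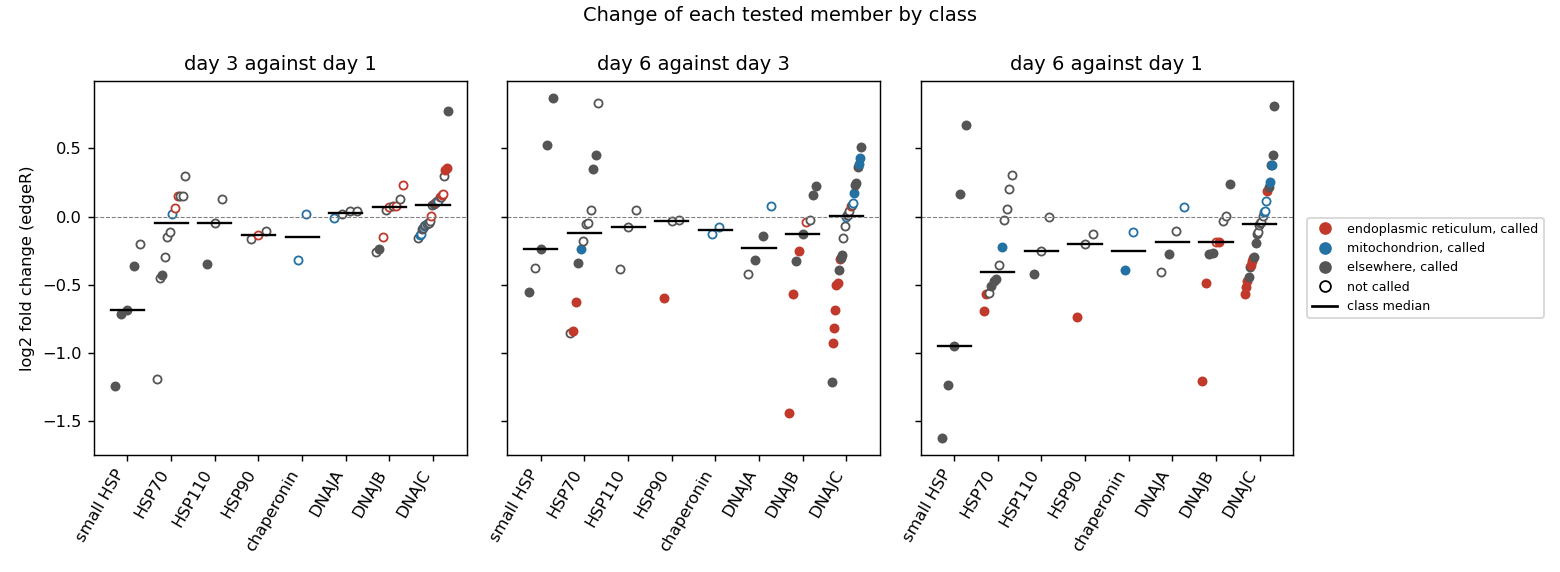
Log2 fold change from edgeR of each tested member, by class, for the 3 comparisons; filled points were called at an adjusted p under 0.05, colours give the compartment and bars the class median. In the left panel the small heat shock genes lie lowest, with a median of -0.69, and in the middle panel 12 of 14 endoplasmic reticulum genes are called lower.

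Among the small heat shock genes, CRYAB encodes alpha-B crystallin, a chaperone of intermediate filaments and of striated muscle (chromosome 11, positions 111908564 to 111923722 of GRCh38). CRYAB had 3.23, 3.55 and 2.57 CPM in the day 1 libraries, 1.34, 1.34, 1.2 and 1.36 CPM in the day 3 libraries and 1.14, 0.907, 0.758 and 1.24 CPM in the day 6 libraries. Every day 3 and day 6 library lay below every day 1 library, and the day 3 and day 6 libraries overlapped. The log2 fold change was -1.25 (SE 0.183, adjusted p = 0.000227) for day 3 against day 1 and -1.62 (SE 0.186, adjusted p = 1.76e-06) for day 6 against day 1, whereas day 6 against day 3 gave -0.38 (adjusted p = 0.123). At these low levels a library held between 25 and 107 counts. HSPB7, known from heart and skeletal muscle and as a partner of filamin C, fell in both steps. HSPB7 had 17.4, 19.3 and 15 CPM in the day 1 libraries, 10.2, 11.4, 10.5 and 10.7 CPM in the day 3 libraries and 7.82, 7.5, 5.33 and 8.62 CPM in the day 6 libraries. The 3 days did not overlap, in falling order, and the log2 fold changes were -0.69 (SE 0.12, adjusted p = 0.00117) for day 3 against day 1 and -0.55 (SE 0.12, adjusted p = 0.000865) for day 6 against day 3.

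HSPB8, which works with BAG3 in chaperone-assisted autophagy, fell early. HSPB8 had 33.6, 32.8 and 40.4 CPM in the day 1 libraries, 21, 24.4, 20.2 and 21.2 CPM in the day 3 libraries and 16, 17.5, 19.2 and 20.8 CPM in the day 6 libraries. Its span overlaps a processed pseudogene. All day 3 libraries lay below all day 1 libraries, with a log2 fold change of -0.71 (SE 0.0925, adjusted p = 8e-05). The day 6 and day 3 libraries overlapped, and the log2 fold change was -0.24 (SE 0.0892, adjusted p = 0.0325). That call ended under library totals, under the block for the letter of the column names, and without day 3 replicate 2 or 4 or day 6 replicate 1 or 2. HSPB1 and HSPB6 had another course. HSPB1 encodes the actin-regulating chaperone HSP27 (chromosome 7, positions 76302673 to 76305813). HSPB1 had 108, 107 and 108 CPM in the day 1 libraries, 85.6, 90, 78.5 and 80.9 CPM in the day 3 libraries and 118, 124, 126 and 115 CPM in the day 6 libraries. The day 3 libraries lay below and the day 6 libraries above those of day 1. The log2 fold change was -0.36 (SE 0.0558, adjusted p = 0.00032) for day 3 against day 1 and 0.53 (SE 0.0519, adjusted p = 1.27e-07) for day 6 against day 3, and the late step exceeded the early one by 0.89 (SE 0.0936, adjusted p = 8.8e-07). Day 6 against day 1 gave 0.16 (SE 0.0557, adjusted p = 0.0257). That call ended in 6 alternatives, among them without any 1 of the day 1 libraries.

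HSPB6 encodes HSP20, a protein phosphorylated when smooth muscle relaxes. HSPB6 had 16.9, 15.6 and 13.2 CPM in the day 1 libraries, 14.1, 13.2, 13.1 and 12.6 CPM in the day 3 libraries and 28, 22.9, 21 and 25.1 CPM in the day 6 libraries. All day 6 libraries exceeded all earlier ones, and days 1 and 3 overlapped. HSPB6 rose by 0.87 (SE 0.0916, adjusted p = 2.86e-07) for day 6 against day 3 and by 0.67 (SE 0.0981, adjusted p = 2.5e-05) for day 6 against day 1, with -0.20 (adjusted p = 0.215) for day 3 against day 1. Of the 5 tested small heat shock genes, 4 were lower on day 3 than on day 1, against 5.9% of all tested genes, and this count was 4 under every alternative run. On day 6 against day 1, 2 were higher and 3 lower, against 21.3% and 18.7%. The summed level of the class, of which HSPB1 held the largest part, was 179 ± 0.371 CPM on day 1, 131 ± 7.26 CPM on day 3 and 172 ± 0.683 CPM on day 6 (SD, n = 3, 4 and 4). The smooth muscle markers were also highest on day 6, as given above, and their part in the levels of HSPB6 and HSPB1 was not tested.

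**Figure D3:**
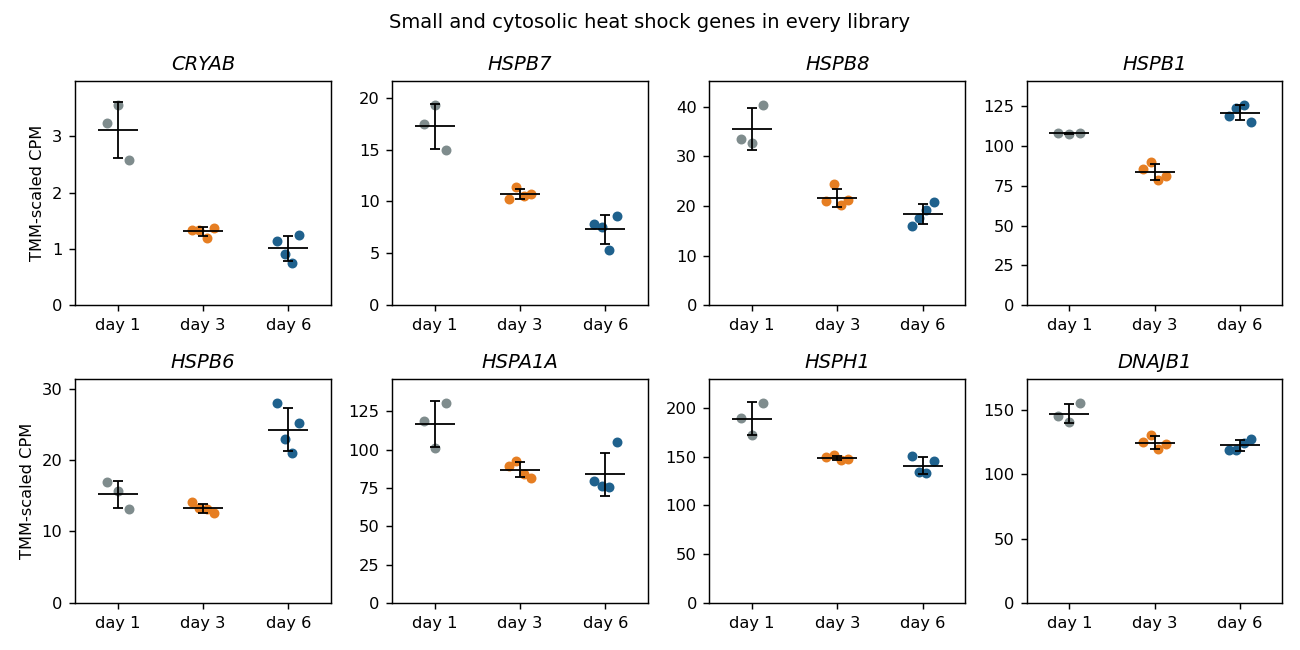
TMM-scaled CPM in every library (points) with the day mean and SD (bars) for 5 small heat shock genes and for HSPA1A, HSPH1 and DNAJB1, on axes that start at 0. CRYAB, HSPB7, HSPB8, HSPB1, HSPA1A, HSPH1 and DNAJB1 lie lower in all day 3 libraries than in all day 1 libraries; HSPB1 and HSPB6 are highest on day 6.

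The stress-inducible HSP70 pair HSPA1A and HSPA1B lies side by side on chromosome 6 and encodes nearly the same protein, so reads could be split between them, and HSPA1B lies within the span of the noncoding gene SNHG32. HSPA1A had 119, 101 and 131 CPM in the day 1 libraries, 89.4, 92.4, 84.4 and 81.3 CPM in the day 3 libraries and 79.5, 76.2, 75.4 and 105 CPM in the day 6 libraries. HSPA1B had 70.2, 57.5 and 77.4 CPM in the day 1 libraries, 52.1, 49.8, 50.4 and 47.5 CPM in the day 3 libraries and 45.6, 41.9, 40.8 and 63.9 CPM in the day 6 libraries. For both, all day 3 libraries lay below all day 1 libraries, and on day 6 replicate 4 stood above the other 3. HSPA1A fell for day 3 against day 1, with a log2 fold change of -0.43 (SE 0.114, adjusted p = 0.0276). That call ended in 6 alternatives, among them without day 1 replicate 1 or 3 and without day 3 replicate 1, 3 or 4. HSPA1B gave -0.45 (SE 0.149, adjusted p = 0.0769) in the same comparison and was not called, though 5 of 20 alternatives called it, DESeq2, limma-voom, library totals and leaving out day 6 replicate 4 among them. For day 6 against day 3 its -0.06 was called, at -0.22, without day 6 replicate 4. Both were called for day 6 against day 1, with -0.48 (SE 0.113, adjusted p = 0.00495) for HSPA1A and -0.51 (SE 0.149, adjusted p = 0.0199) for HSPA1B. The call for HSPA1A ended under the block for the letter of the column names, and that for HSPA1B in 6 alternatives, among them without day 1 replicate 1 or 3 and without day 6 replicate 1 or 3. With the counts of both genes summed, 2 results stayed called and 2 not called, as for HSPA1A alone. These were the 3 comparisons and the difference between the steps.

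HSPA6 is a strictly stress-inducible HSP70 gene with a run of 3 GAA units in its promoter window. HSPA6 had 1.89, 1.26 and 1.65 CPM in the day 1 libraries, 0.979, 0.46, 0.562 and 0.773 CPM in the day 3 libraries and 0.954, 1.38, 0.455 and 2.28 CPM in the day 6 libraries. The day 3 libraries all lay below those of day 1, and the day 6 libraries overlapped both days. Its log2 fold changes were -1.19 (adjusted p = 0.0787) for day 3 against day 1 and 0.84 (adjusted p = 0.103) for day 6 against day 3, neither called. The first was called in 6 of 20 alternatives, DESeq2 and leaving out day 6 replicate 3 or 4 among them, and the second in 3 of 20 alternatives, library totals and leaving out day 6 replicate 3 among them. The difference between the steps was 2.03 (SE 0.725, adjusted p = 0.0432). That call ended in 9 alternatives, among them without any 1 of the day 1 libraries, without day 3 replicate 2, 3 or 4 and without day 6 replicate 2. HSPA1L, a neighbour of HSPA1A that is abundant in testis, had 7.07, 7.67 and 7.47 CPM in the day 1 libraries, 5.84, 5.87, 6.5 and 5.89 CPM in the day 3 libraries and 7.5, 7.13, 7.91 and 8.25 CPM in the day 6 libraries. Day 6 lay above day 3 in every library, with a log2 fold change of 0.35 (SE 0.0912, adjusted p = 0.00335). HSPA2, best known from male germ cells, had 12.4, 8.5 and 11.8 CPM in the day 1 libraries, 11.1, 10.5, 8.58 and 9.13 CPM in the day 3 libraries and 15.5, 10.9, 13.4 and 14.1 CPM in the day 6 libraries, and rose by 0.45 (SE 0.127, adjusted p = 0.00705) for day 6 against day 3 although 1 pair of libraries crossed.

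HSPA8, the constitutive HSP70, whose promoter with 2 runs of GAA units is printed above, fell late. HSPA8 had 1742, 1749.9 and 1792 CPM in the day 1 libraries, 1686, 1624, 1551 and 1637 CPM in the day 3 libraries and 1337, 1287, 1208 and 1306 CPM in the day 6 libraries. All day 6 libraries lay below all day 3 libraries, and the day 3 libraries below those of day 1. The log2 fold change was -0.34 (SE 0.0585, adjusted p = 8.63e-05) for day 6 against day 3 and -0.46 (SE 0.0628, adjusted p = 1.31e-05) for day 6 against day 1; day 3 against day 1 gave -0.12 (adjusted p = 0.249), called under library totals. HSPA9, or mortalin, drives protein import into mitochondria. HSPA9 had 268, 253 and 269.7 CPM in the day 1 libraries, 269, 269, 259 and 269 CPM in the day 3 libraries and 230.0, 225, 205 and 243 CPM in the day 6 libraries. Its day 6 libraries lay below all others, and the log2 fold change was -0.24 (SE 0.0545, adjusted p = 0.00117) for day 6 against day 3 and -0.22 (SE 0.0586, adjusted p = 0.00478) for day 6 against day 1, and both calls ended when libraries were scaled by their totals. HSPA12A, HSPA12B and HSPA14, distant relatives of the class, were called in 0 of the 3 comparisons, with log2 fold changes of 0.20, -0.56 and -0.03 for day 6 against day 1. For HSPA12A that comparison was called under library totals and without day 1 replicate 3 or day 6 replicate 3, and HSPA12B was called for day 6 against day 3 without day 3 replicate 4. Of 12 HSP70 genes, 1 was lower and 0 higher for day 3 against day 1, against 5.9% and 6.88% of all tested genes. In the late step 4 were lower and 2 higher, against 23.4% and 26.4%, so that in neither step was the share called far from that of all genes. Over both steps 6 were lower and 0 higher for day 6 against day 1, against 18.7% and 21.3%.

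HSPH1, the HSP110 protein that resets HSP70 in the cytosol, fell early (chromosome 13, positions 31134973 to 31162388). HSPH1 had 189.9, 172 and 205 CPM in the day 1 libraries, 149, 152, 147 and 147 CPM in the day 3 libraries and 150.5, 135, 133 and 145 CPM in the day 6 libraries. Day 3 and day 6 both lay below day 1 in every library and overlapped each other. The log2 fold change was -0.35 (SE 0.0619, adjusted p = 0.00124) for day 3 against day 1, -0.42 (SE 0.0619, adjusted p = 2.42e-05) for day 6 against day 1 and -0.08 (adjusted p = 0.266) for day 6 against day 3. Its relatives HSPA4 and HSPA4L were not called in any of the 3 comparisons. For HSPA4L, -0.39 (adjusted p = 0.0555) for day 6 against day 3 was called in 11 of 20 alternatives, RLE scaling, DESeq2 and limma-voom among them, and without day 1 replicate 2 or 3, day 3 replicate 1 or 2 or day 6 replicate 4. HSPA4 averaged 173 ± 2.57 CPM on day 1, 167 ± 6.02 CPM on day 3 and 172 ± 9.93 CPM on day 6 (SD, n = 3, 4 and 4).

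The cytosolic HSP90 genes were called in 0 of the 3 comparisons, though some alternatives called them. HSP90AA1, the inducible form, had 1023, 1003 and 1081 CPM in the day 1 libraries, 949, 950.4, 945 and 1003 CPM in the day 3 libraries and 927, 975, 915 and 967 CPM in the day 6 libraries. HSP90AB1, the constitutive form, had 1113, 1052 and 1185 CPM in the day 1 libraries, 1042, 997, 982 and 966 CPM in the day 3 libraries and 1069, 885, 854 and 1083 CPM in the day 6 libraries. On day 3 every library of both genes lay below every day 1 library, by log2 fold changes of -0.11 (SE 0.0597, adjusted p = 0.268) and -0.16 (SE 0.0813, adjusted p = 0.205), which were not called. For HSP90AA1 the days nearly met, at 1002.92 CPM in day 3 replicate 4 and 1002.97 CPM in day 1 replicate 2. Library totals and the fit of only these 2 days called HSP90AB1 here. HSP90AA1 gave -0.02 (adjusted p = 0.743) for day 6 against day 3, a value of 0.16 with a call under library totals. For day 6 against day 1 the log2 fold changes were -0.13 (adjusted p = 0.0892) and -0.20 (adjusted p = 0.0586). DESeq2 called HSP90AA1. HSP90AB1 was called in 8 of 20 alternatives, RLE scaling, DESeq2 and limma-voom among them, and without day 1 replicate 2 or day 6 replicate 1 or 4. The third gene of the class, HSP90B1 of the endoplasmic reticulum, is described with that compartment.

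Of the 14 members assigned to the endoplasmic reticulum from background knowledge, most fell late. For day 6 against day 3, 12 were lower and 0 higher, with a median log2 fold change of -0.58 and a range of -1.44 to 0.08; under all alternatives run the count of lower genes was 11 or 12. Of the 9 mitochondrial members 3 were higher and 1 lower (median 0.08), and of the other 41 tested members 10 were higher and 11 lower (median -0.05), against 26.4% higher and 23.4% lower among all tested genes. In the early step the endoplasmic reticulum members had 2 higher and 0 lower calls, against 6.88% and 5.9% of all tested genes, and a median of 0.13. Between day 6 and day 1, 12 were lower and 1 higher, against 18.7% and 21.3%. The higher one was DNAJC14, with 0.19 (SE 0.065, adjusted p = 0.0288). That call ended in 6 alternatives, among them without day 1 replicate 1 or 3 and without day 6 replicate 3. The summed level of the 14 genes was 5006 ± 513 CPM on day 1, 5141 ± 105 CPM on day 3 and 3275 ± 334 CPM on day 6 (SD, n = 3, 4 and 4). The epithelial list, whose sums are given above, was also highest on day 3 and lowest on day 6. Its keratin KRT8, the largest part of the sum and chosen after its values were seen, gave 0.42 (adjusted p = 0.00138) for day 3 against day 1 and -0.92 (adjusted p = 7.91e-09) for day 6 against day 3. The other tested keratins differed. KRT19 averaged 2.21, 3.96 and 4.98 CPM on days 1, 3 and 6, highest on day 6. KRT18 averaged 10.8, 13 and 11.4 CPM, lowest on day 1. The part of these markers in the levels of the endoplasmic reticulum genes was not tested.

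HSPA5, the HSP70 of the endoplasmic reticulum and the sensor-binding chaperone of its stress response, carries the stress element printed above (chromosome 9, positions 125234853 to 125241382). HSPA5 had 1899.9, 1765 and 2260.0 CPM in the day 1 libraries, 2071, 2136, 2084 and 1963 CPM in the day 3 libraries and 1332, 1379, 1109 and 1513 CPM in the day 6 libraries. All day 6 libraries lay below all others, day 6 replicate 3 lowest, and day 1 and day 3 overlapped. The log2 fold change was -0.63 (SE 0.0883, adjusted p = 1.01e-05) for day 6 against day 3 and 0.06 (adjusted p = 0.728) for day 3 against day 1. HSP90B1, or GRP94, the HSP90 of the same compartment, had 1579.6, 1504 and 1798 CPM in the day 1 libraries, 1442, 1494, 1520.3 and 1458 CPM in the day 3 libraries and 1044, 965, 782 and 1109 CPM in the day 6 libraries. All its day 6 libraries lay below all others, with -0.60 (SE 0.0875, adjusted p = 1.65e-05) for day 6 against day 3, and the change differed between the steps by -0.46 (SE 0.154, adjusted p = 0.0254). The call on that difference ended under library totals and without day 1 replicate 1 or 2 or day 3 replicate 2, 3 or 4. HSPA13, a short HSP70 of microsomes, had 198, 173 and 222 CPM in the day 1 libraries, 215, 205, 227 and 229 CPM in the day 3 libraries and 112, 131, 119.5 and 126 CPM in the day 6 libraries. The day 6 libraries stood apart below the others, with a log2 fold change of -0.84 (SE 0.0692, adjusted p = 1.59e-08) for day 6 against day 3.

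The J-domain partners DNAJB9 and DNAJC3 had the 2 largest late changes among these 14 genes. DNAJB9, which recruits HSPA5 to the stress sensor IRE1 and to misfolded clients, had 225, 204 and 263 CPM in the day 1 libraries, 264, 256, 288 and 276 CPM in the day 3 libraries and 95.8, 109, 87.7 and 107 CPM in the day 6 libraries. Its day 6 level was below all others, with a log2 fold change of -1.44 (SE 0.0797, adjusted p = 5.3e-10) for day 6 against day 3 and -1.21 (SE 0.0841, adjusted p = 1.9e-08) for day 6 against day 1. DNAJC3, a luminal partner that also inhibits the kinase PERK, had 316, 299 and 347 CPM in the day 1 libraries, 393, 409, 425 and 417 CPM in the day 3 libraries and 216, 218, 204 and 225 CPM in the day 6 libraries. The 3 days did not overlap, with day 3 highest and day 6 lowest. It rose by 0.36 (SE 0.0605, adjusted p = 0.00079) for day 3 against day 1 and gave -0.93 (SE 0.0562, adjusted p = 4.03e-10) for day 6 against day 3, a difference between steps of -1.29 (SE 0.0975, adjusted p = 2.7e-08). DNAJC1, a membrane protein that meets ribosomes, had 84.3 ± 9.29 CPM on day 1, 107 ± 4.94 CPM on day 3 and 60.7 ± 3.58 CPM on day 6 (SD, n = 3, 4 and 4), and likewise did not overlap between days, with 0.34 (SE 0.0691, adjusted p = 0.00288) and -0.82 (SE 0.0644, adjusted p = 8.56e-09).

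DNAJB11, which binds unfolded clients before HSPA5 does, had 84.3, 80.4 and 97.1 CPM in the day 1 libraries, 91.8, 100.4, 92.1 and 84.5 CPM in the day 3 libraries and 64.4, 63.6, 59.9 and 61.2 CPM in the day 6 libraries, and its log2 fold change was -0.57 (SE 0.0627, adjusted p = 5.2e-07) for day 6 against day 3. DNAJC25, a membrane protein whose span overlaps the read-through row DNAJC25-GNG10, had 17.7, 16.9 and 20.7 CPM in the day 1 libraries, 18.6, 18, 23.8 and 22.4 CPM in the day 3 libraries and 12.9, 13.3, 12.5 and 12.7 CPM in the day 6 libraries. All its day 6 libraries lay below all others, with -0.69 (SE 0.0913, adjusted p = 4.52e-06) for day 6 against day 3. DNAJC10, which reduces disulfide bonds of misfolded clients, fell to 181 ± 8.67 CPM on day 6, against 224 ± 7.64 CPM on day 3, with -0.31. The membrane members DNAJC16, DNAJC18 and DNAJB12 fell in the same step, with log2 fold changes of -0.48, -0.50 and -0.25, the last of which lost its call under library totals. DNAJB14 and DNAJC14 were not called, with -0.04 and 0.08. The stress-induced nucleotide exchange factor HYOU1 of the same compartment, which is not a member and was chosen after its values were seen, gave -0.95 (SE 0.104, adjusted p = 4.12e-06).

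**Figure D4:**
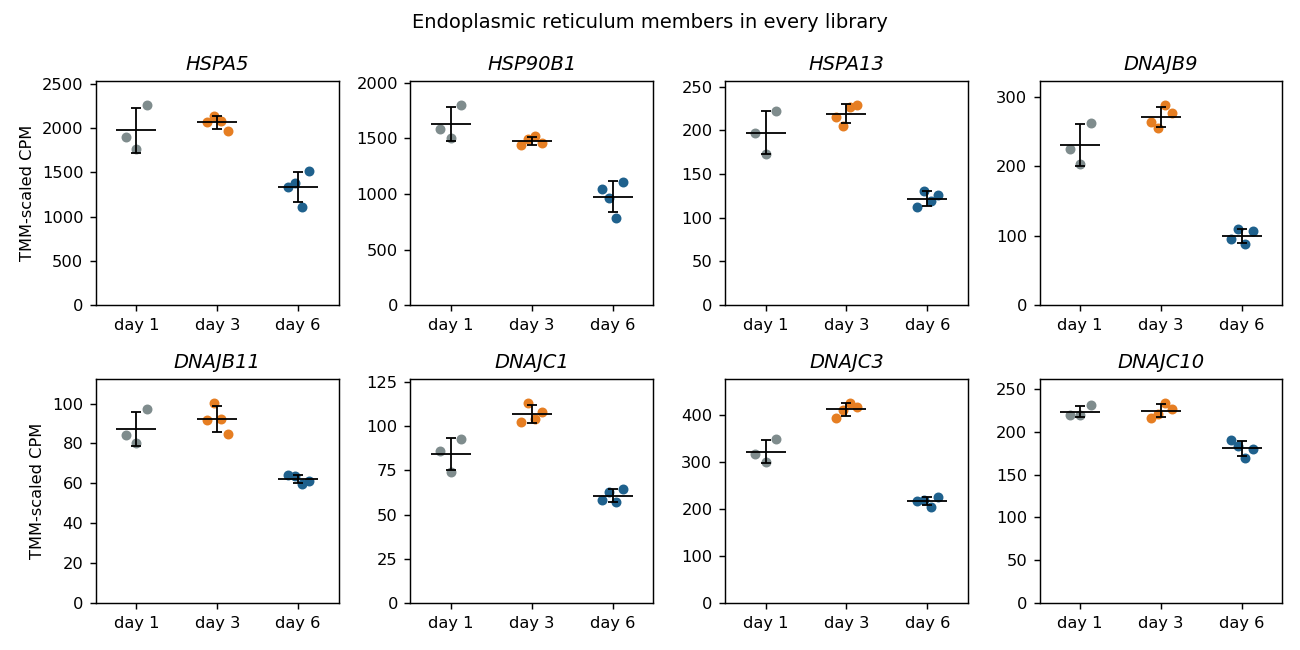
TMM-scaled CPM in every library (points) with the day mean and SD (bars) for 8 endoplasmic reticulum members, on axes that start at 0. The 8 are among the 12 of 14 members of this compartment called lower for day 6 against day 3, against 23.4% of all tested genes. DNAJB14 and DNAJC14, not called at -0.04 and 0.08, are not shown. DNAJC1 and DNAJC3 are higher on day 3 than on day 1.

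The mitochondrial chaperonin genes HSPD1 and HSPE1 sit head to head on chromosome 2, with the annotated span of HSPE1 inside that of HSPD1. HSPD1 had 182, 168 and 189 CPM in the day 1 libraries, 188, 174, 180.4 and 184 CPM in the day 3 libraries and 178, 167, 142 and 177 CPM in the day 6 libraries. The days overlapped, and the log2 fold change was -0.13 (adjusted p = 0.104) for day 6 against day 3 and -0.11 (adjusted p = 0.224) for day 6 against day 1. HSPE1, whose count is uncertain as given above, had 9.61, 9.26 and 9.69 CPM in the day 1 libraries, 8.32, 5.87, 7.94 and 8.36 CPM in the day 3 libraries and 6.33, 7.31, 8.03 and 7.35 CPM in the day 6 libraries. It was called for day 6 against day 1 only, with -0.39 (SE 0.116, adjusted p = 0.0111). That call ended under library totals and under the block for the letter of the column names. Of the mitochondrial J-domain genes, DNAJC11, linked to the cristae-organising complex, and DNAJC19, linked to the import motor, rose late. DNAJC11 had 30.4, 34.8 and 31.7 CPM in the day 1 libraries, 29.5, 31.6, 28.8 and 27.9 CPM in the day 3 libraries and 39.3, 36.2, 40.1 and 38.2 CPM in the day 6 libraries. DNAJC19 had 7.88, 8.17 and 7.6 CPM in the day 1 libraries, 7.7, 8.25, 7.98 and 6.56 CPM in the day 3 libraries and 9.79, 10.8, 11.3 and 9.02 CPM in the day 6 libraries. For both, all day 6 libraries lay above all day 3 libraries, by 0.38 (SE 0.0611, adjusted p = 3.58e-05) and 0.43 (SE 0.0963, adjusted p = 0.00111). DNAJC15 gave 0.17 (SE 0.0635, adjusted p = 0.0322). Its call ended under RLE scaling and DESeq2 and without day 3 replicate 1 or 2 or day 6 replicate 3 among 7 alternatives. DNAJA3, DNAJC28 and DNAJC30 were not called, with log2 fold changes of 0.08, 0.00 and 0.10 in the same comparison, the last called without day 3 replicate 2.

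Among the cytosolic DNAJ genes, DNAJB1, the classic heat-inducible J-domain partner of HSP70, fell early. Its span overlaps that of TECR, which held 32601 counts over all libraries against 43198 for DNAJB1. DNAJB1 had 145, 141 and 155 CPM in the day 1 libraries, 125, 131, 119 and 123 CPM in the day 3 libraries and 119, 119, 124 and 128 CPM in the day 6 libraries. Every day 3 and day 6 library lay below every day 1 library. The log2 fold change was -0.24 (SE 0.0544, adjusted p = 0.00656) for day 3 against day 1, -0.27 (SE 0.0543, adjusted p = 0.000664) for day 6 against day 1 and -0.02 (adjusted p = 0.71) for day 6 against day 3; under library totals the last was called at 0.16. DNAJA1 had 351, 340.2 and 380.4 CPM in the day 1 libraries, 359, 375, 370.2 and 369 CPM in the day 3 libraries and 299, 285, 299 and 298 CPM in the day 6 libraries. Its day 6 libraries lay below all others, with -0.32 (SE 0.0508, adjusted p = 3.77e-05) for day 6 against day 3. DNAJA2, a close relative, had 98, 89.6 and 92.9 CPM in the day 1 libraries, 93, 94.2, 97.7 and 99.1 CPM in the day 3 libraries and 86.9, 86.6, 91.5 and 82.7 CPM in the day 6 libraries, and gave -0.14 (SE 0.0498, adjusted p = 0.0224) in the same comparison. This turned to 0.04 without a call under library totals and lost its call under the block for the letter and without day 3 replicate 3 or 4 or day 6 replicate 4. DNAJA4 was not called, with -0.42.

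DNAJB4 and DNAJB5 are close relatives of DNAJB1. DNAJB4 had 23.6, 22.2 and 24.1 CPM in the day 1 libraries, 18.3, 16.6, 21.7 and 21.3 CPM in the day 3 libraries and 24.1, 23.2, 19.9 and 24 CPM in the day 6 libraries. The day 3 libraries were below all day 1 libraries without a call (-0.26, adjusted p = 0.0694), although 6 of 20 alternatives called it, library totals and leaving out day 3 replicate 3 or day 6 replicate 3 among them, and day 6 gave 0.23 (SE 0.0848, adjusted p = 0.0326) against day 3. That call ended in 7 alternatives, among them DESeq2 and without day 3 replicate 1 or 2 or day 6 replicate 1, 2 or 4. DNAJB5 had 30.7, 31.6 and 31.5 CPM in the day 1 libraries, 32.2, 34.8, 35.2 and 29.8 CPM in the day 3 libraries and 36, 38.8, 33.5 and 39.1 CPM in the day 6 libraries. Day 6 lay above day 1 in every library and overlapped day 3, with 0.24 (SE 0.0705, adjusted p = 0.0113) for day 6 against day 1, which ended without day 1 replicate 1 and under the block for the letter. For day 6 against day 3 its 0.16 was called. The call ended in 15 alternatives, RLE scaling, DESeq2 and limma-voom among them, and without any 1 of the day 1 libraries, of day 3 replicates 1 and 4 or of day 6 replicates 1, 2 and 4. DNAJB2, a partner of HSP70 in protein degradation known best from neurons, fell to 106 ± 4.62 CPM on day 6, against 132 ± 2.53 CPM on day 3 (log2 fold change -0.32), and DNAJB6, a suppressor of aggregation, gave -0.13. The DNAJB6 call ended in 9 alternatives, among them library totals, where the value was 0.06, and without day 3 replicate 1, 2 or 4 or day 6 replicate 1, 3 or 4. Of 9 tested DNAJB genes 5 were lower and 2 higher for day 6 against day 3, against 23.4% and 26.4% of all tested genes.

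The DNAJC genes, which share little beyond the J domain, went both ways. DNAJC12, a partner of the aromatic amino acid hydroxylases, peaked on day 3. DNAJC12 had 3.78, 2.76 and 3.53 CPM in the day 1 libraries, 5.68, 6.37, 5.77 and 5.19 CPM in the day 3 libraries and 3.21, 2.16, 2.21 and 2.31 CPM in the day 6 libraries. All day 3 libraries exceeded all others, with 0.77 (SE 0.151, adjusted p = 0.00229) for day 3 against day 1 and -1.22 (SE 0.143, adjusted p = 1.16e-06) for day 6 against day 3, a difference between the steps of -1.99 (SE 0.245, adjusted p = 5.44e-06). For day 6 against day 1 its -0.44 was called, and the call ended in 8 alternatives, among them without day 1 replicate 1 or 3 and without day 6 replicate 2, 3 or 4. DNAJC9, a histone chaperone of replicating cells, rose late. Its span overlaps that of FAM149B1, which held 3723 counts over all libraries against 2635 for DNAJC9. DNAJC9 had 5.89, 6.27 and 5.28 CPM in the day 1 libraries, 7.8, 7.33, 5.77 and 7.7 CPM in the day 3 libraries and 9.92, 11.2, 10.1 and 9.49 CPM in the day 6 libraries. Day 6 lay above days 1 and 3 in every library, with 0.51 (SE 0.104, adjusted p = 0.000428) against day 3 and 0.81 (SE 0.114, adjusted p = 1.71e-05) against day 1. DNAJC22 had 17.2, 19.4 and 17.1 CPM in the day 1 libraries, 18.2, 19.3, 19.8 and 18.7 CPM in the day 3 libraries and 26.4, 25.3, 23.2 and 23 CPM in the day 6 libraries, and its day 6 libraries exceeded all others, with 0.37 (SE 0.0686, adjusted p = 0.000199) against day 3.

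Of the 26 tested DNAJC genes 3 were higher and 0 lower for day 3 against day 1, against 6.88% and 5.9% of all tested genes. For the late step the counts were 7 higher and 10 lower, against 26.4% and 23.4%, and over both steps 7 higher and 11 lower, against 21.3% and 18.7%. The shares called higher lay near those of all genes in the late step and over both steps. Outside the endoplasmic reticulum and mitochondria, DNAJC4, DNAJC5 and DNAJC2 fell for day 6 against day 3, with log2 fold changes of -0.40, -0.30 and -0.28, that of DNAJC2 without a call under library totals; DNAJC5 is the cysteine string protein of exocytosis and DNAJC2 a chaperone of nascent chains at the ribosome. The span of DNAJC2 overlaps that of PSMC2, which held 35650 counts over all libraries against 9306 for DNAJC2. DNAJC8, found with spliceosomes, and DNAJC17 rose for day 6 against day 3, by 0.25 and 0.23. The call for DNAJC17 ended in 11 alternatives, RLE scaling and DESeq2 among them, and without day 1 replicate 1, day 3 replicates 1, 2 or 3 or day 6 replicates 1, 2 or 4. DNAJC6 (auxilin, which uncoats clathrin vesicles), DNAJC7, DNAJC13, DNAJC21, DNAJC24 and DNAJC27 were not called for day 6 against day 3, with log2 fold changes between -0.15 and 0.09.

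**Figure D5:**
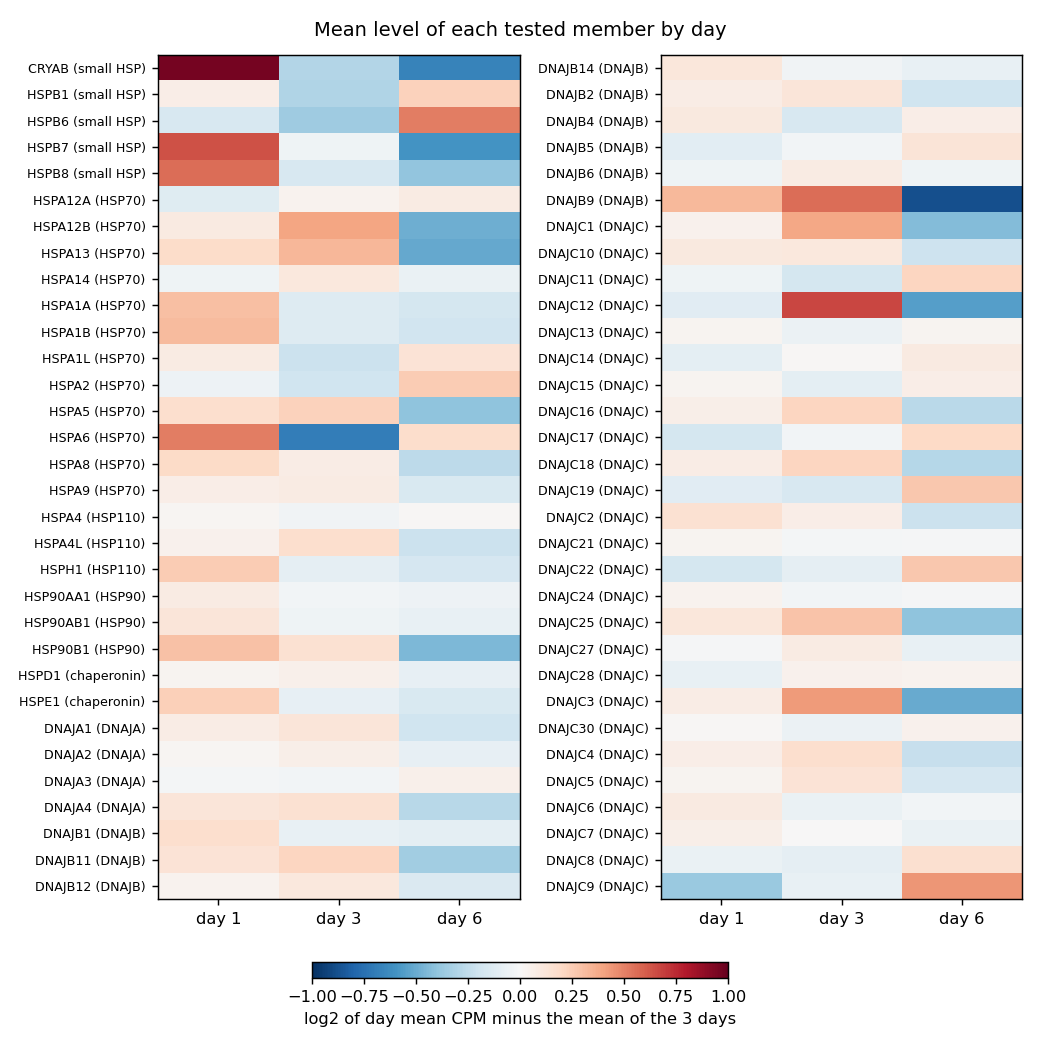
Mean level of each tested member by day, as log2 of the day mean CPM minus the mean of the 3 days (red higher, blue lower); days run from left to right, genes down the page by class. CRYAB, HSPB7 and HSPB8 are highest on day 1, DNAJC12 on day 3, and HSPA5, HSP90B1, HSPA13, DNAJB9 and DNAJC3 are lowest on day 6.

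Other genes of the pathway were taken from 5 lists. Of 6 tested heat shock factors and regulators, 1 was lower and 0 higher for day 3 against day 1, and 1 was higher and 3 were lower for day 6 against day 3. For this list and the next, the shares of all tested genes were 6.88% higher and 5.9% lower early, and 26.4% and 23.4% late. HSF1, the main inducer of the cytosolic set, had 124, 119.9 and 127 CPM in the day 1 libraries, 123, 123, 114 and 108 CPM in the day 3 libraries and 94.9, 90.6, 100 and 101 CPM in the day 6 libraries. Its day 6 libraries lay below all others, with -0.27 (SE 0.0544, adjusted p = 0.000344) for day 6 against day 3, not called under library totals, and -0.08 (adjusted p = 0.396) for day 3 against day 1. HSBP1, an inhibitor of HSF1, was the gene that fell early, with -0.27, a call lost without day 1 replicate 3 or day 3 replicate 1. Of 16 genes listed as HSP90 co-chaperones, 0 were higher and 2 lower early, and 4 were higher and 2 lower late. The early falls were CHORDC1 with -0.49 and the cyclophilin PPID with -0.27, the latter not called without day 1 replicate 2. TRAP1 rose late by 0.45 and is counted in this list, although it is the HSP90 of mitochondria and not a co-chaperone. AHSA1, which speeds the HSP90 ATP cycle, was lower late with -0.13, a value of 0.06 without a call under library totals.

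Of 13 HSP70 co-chaperones, 1 was higher and 2 were lower early, and 3 were higher and 6 lower late. BAG3, the partner of HSPB8, was lower late (-0.22, not called under library totals or without day 3 replicate 1 or day 6 replicate 2) and for day 6 against day 1 (-0.39). ST13, which binds HSP70, and GRPEL1, the nucleotide exchange factor of HSPA9, had the smallest adjusted p among the late falls, with -0.74 and -0.57, whereas BAG2 and HSPBP1 rose by 0.55 and 0.30. The cytosolic chaperonin and prefoldin list had 0 higher and 1 lower call among 14 genes early and 4 higher and 0 lower late, and its median log2 fold change was 0.04 for day 6 against day 3. Of 8 tested partners of small heat shock proteins, 0 were higher and 3 lower early, SYNPO and FLNC among those lower, with -0.55 and -0.68; late, 4 were higher and 2 lower, with FLNA at 1.17 and SYNPO at 1.31. Over all tested genes 6.88% were higher and 5.9% lower early, and 26.4% and 23.4% late.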

How the data were processed

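The deposited values were whole-number counts per gene for 11 RNA-seq libraries; per the submitters' processing notes they involved GRCh38, DRAGEN, STAR 2.7.11b, Subread, featureCounts 2.0.8 and Salmon 1.10.0, with no role given, and the strand and multimapping settings are not given in the sources used here. The 99 rows that name no human gene (spike-ins and transgenes) were left out, and 0 columns went unused. Genes passing edgeR's filterByExpr by day were fitted together over the 3 days with edgeR 4.0.16 in R 4.3.3 (TMM scaling, robust quasi-likelihood test), and a gene was called at a Benjamini-Hochberg adjusted p under 0.05 over all tested genes; the SE is the log2 fold change divided by the square root of F. DESeq2 1.42.0 and limma-voom (limma 3.58.1) served as alternatives, beside other scalings and filters, replicate blocks, fits of only 2 days and fits without each library in turn. The fit was also run on counts simulated with its own estimates of spread and few changed genes. Such counts cannot test the choice of scaling or the weight of single libraries. Named with library values were 17 fixed genes and, by class and comparison, the 2 called members of at least 1 CPM with the largest rise and fall; of other lists, up to 2 called genes a direction by adjusted p. Members, compartments (from background knowledge) and lists were chosen with earlier results of these data known. Deviations from the day means correlated at -0.0226 to 0.103 between libraries of the same number and at -0.0833 to 0.0221 for the same letter. Pairs of unlike number or letter were not compared, so a shared culture or batch was not tested. Promoter windows were searched in RefSeq sequences of GRCh38.p14.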

Additional observations from a re-analysis of the deposited data

Results flagged for a closer look

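In groups of 4 libraries a library was flagged where its gap to the nearest of the others exceeded Dixon's 95% critical value for the range, which chance alone gives in about 1 of 20 groups. Of 68 groups of named members, 8 were flagged. On day 3, CRYAB was low in replicate 3 at 1.2 CPM, HSPA9 was low in replicate 3 at 259 CPM, HSPA1L was high in replicate 3 at 6.5 CPM, HSPE1 was low in replicate 2 at 5.87 CPM and HSP90AA1 was high in replicate 4 at 1003 CPM. On day 6, DNAJA1 was low in replicate 2 at 285 CPM, DNAJC12 was high in replicate 1 at 3.21 CPM and HSPA1A was high in replicate 4 at 105 CPM. For HSPA1A the other day 6 libraries lay between 75.4 and 79.5 CPM, and for HSPE1 the other day 3 libraries lay between 7.94 and 8.36 CPM.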

How the results depend on the processing

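Over 5099 alternative values for 258 gene results, 4598 kept direction and side of the threshold, 388 lost and 72 gained a call, and 41 turned sign. The causes were not tested. The 258 results cover the named members in every comparison and, of the other members and listed genes, only the called results. Sign changes outside these results, such as that of DNAJC10 for day 3 against day 1, are not listed below. For day 3 against day 1, a fit of only these 2 days called 18 members, against 20.8% of all tested genes. Leaving out 1 library gave 9 to 14 members for day 3 against day 1, 32 to 37 for day 6 against day 3, 32 to 40 for day 6 against day 1 and 23 to 29 for the difference between the steps. The shares of all tested genes called in these fits were 7.19% to 16.7%, 45.1% to 48.8%, 28.9% to 40% and 29.1% to 37%. The replicate block by title number gave 12, 37, 41 and 29 members in the same order, against 12%, 50.2%, 39% and 35% of all genes. The replicate block by letter gave 9, 30, 28 and 24 members, against 9.31%, 42.3%, 28.4% and 31.2% of all genes. Deviations of same-numbered libraries from their day means correlated at -0.0226 to 0.103 over 10 pairs, without other pairs to compare. Log2 values that turned sign under library totals were, for day 3 against day 1, HSPA9 -0.0411, HSPD1 -0.0356, DNAJA1 -0.0118, DNAJA2 -0.0187; for day 6 against day 3, HSPA1A 0.13, HSPA1B 0.12, HSPH1 0.10, HSP90AA1 0.16, HSP90AB1 0.15, HSPD1 0.0501, HSPE1 0.11, DNAJB1 0.16, DNAJA2 0.0424, DNAJB6 0.0576, AHSA1 0.0563, UNC45A 0.0614, BAG5 0.0608; for day 6 against day 1, HSPD1 0.0145, DNAJA2 0.0237, DNAJB4 0.0948, DNAJC7 0.000362; and for the difference between the steps, HSPA8 0.0177, HSPD1 0.0858, DNAJA2 0.0611. Under the block by number, HSPA9 -0.00536, DNAJC19 0.0112 turned for day 3 against day 1, and under the block by letter HSP90AA1 0.00657, HSPE1 0.0172, DNAJB1 0.00305 for day 6 against day 3. With 1 library left out, values that turned ranged over HSPA5 -0.0192 to 0.17 for day 3 against day 1, HSPA9 -0.0221 to 0.0324 for day 3 against day 1, HSPD1 -0.0345 to 0.0579 for day 3 against day 1, DNAJA2 -7.67e-05 to 0.0736 for day 3 against day 1, DNAJC19 -0.0865 to 0.0167 for day 3 against day 1, HSPA1B -0.22 to 0.0154 for day 6 against day 3, HSP90AB1 -0.0883 to 0.025 for day 6 against day 3, HSPA1A -0.17 to 0.00183 for day 6 against day 3, DNAJB4 -0.077 to 0.0306 for day 6 against day 1, DNAJB5 -0.0091 to 0.15 for late step minus early step. Depth limits the lowest tested members most, HSPA12B, HSPA6 and DNAJA4, with as few as 5, 12 and 19 counts in a library.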
